A study of Homo sapiens with 6 samples.

Results

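The genes described are 41 genes of the cell cycle and of DNA replication in MRC5 human lung fibroblasts, chosen by name. All 41 symbols were found among the 25368 different symbols of each of 2 expression tables. They were divided by role into 17 replication genes, which act in S phase or prepare for it, 23 mitosis genes, which act in G2 and M phase, and the G1 cyclin gene CCND1. The JUN overexpression table holds MRC5 cells infected for 2 h with adenovirus carrying an empty vector (control), FLAG-tagged wild-type JUN (JUN WT) or FLAG-tagged JUN with both JNK phosphorylation sites changed to alanine (JUN AA), each cultured for 3 days. The JNKi table holds MRC5 cells with no treatment (MRC5), MRC5 cells turned into induced cancer-associated fibroblasts (iCAFs) by 7 days in conditional medium (CM) of the breast cancer line MDA-MB-231, and iCAFs given 1 µM of the JNK inhibitor JNK-IN-8 for 48 h (iCAFs+JNKi). The protocol names DMSO as vehicle, but the iCAFs label does not say whether it was given. Whether the 48 h fell within the 7 days or followed them is not stated either, so the inhibitor and a longer culture cannot be told apart. All 6 cultures derive from 1 line, MRC5 immortalised with hTERT. Each condition has 1 library, so no difference below has a replicate check, no test between conditions could be made and no p-value is given. The study asked whether phosphorylated JUN is sufficient and required for CAF features, and these genes show how proliferation-linked transcripts stood in the same libraries.

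As background, cells license replication origins in G1 when CDC6 and CDT1 load the ring of MCM proteins onto DNA. CDC45 and the GINS complex then turn that ring into an active helicase in S phase, while E2F transcription factors switch on most of these genes. Genes of mitosis are transcribed later, in G2, and their products build the spindle, monitor chromosome attachment and degrade cyclin B. Resting fibroblasts express little of either group. In bulk RNA, fewer cycling cells and less of a transcript in each cycling cell cannot be told apart.

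The tables give FPKM, fragments scaled by transcript length and by the fragments mapped, so levels are per length and can be set beside each other between genes of 1 library. The FPKM sums lay between 359944 and 613184, and the number of reads is unknown. Low values showed no shared step between libraries, since no single ratio was held by more than 0.935% of low genes in the JUN overexpression table or 3.59% in the JNKi table, so whole reads were not recovered. All 10 genes of the fibroblast marker list were present in every library, from 8.85 FPKM for FAP to 2927 FPKM for VIM. The epithelial gene CDH1, the T cell gene CD3E and the endothelial gene CDH5 were listed at 0 in all 6, although KRT8, KRT18 and CD68, from the same marker lists, were at 5.80 FPKM or more in each. TERT, the gene introduced to immortalise the line, was also listed at 0 in all 6. JUN itself was at 25.5 (control), 4543 (JUN WT) and 291 FPKM (JUN AA). Of the 41 members, 15 share exon bases with another gene on the GENCODE annotation of GRCh37, and strand-specific counting is not stated, so their reads may include those of the neighbour. They are CDC45, MCM2, MCM7, GINS2, TYMS, CCNE2, CCNA2, PLK1, BUB1B, CENPA, KIF20A, KIF23, KIF2C, NUSAP1 and CCND1.

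With JNKi, every member was at a lower FPKM than in iCAFs without JNKi, and the mitosis genes were lower by more than the replication genes. The median difference in log2(FPKM + 1), the scale of every log2 value here, was -0.67 over the 23 mitosis genes and -0.33 over the 17 replication genes, beside -0.10 over the 11780 genes whose mean reached 1 FPKM, the filter used throughout. All 41 members passed that filter in this table. Of all genes 62.6% were lower with JNKi. At least 2-fold falls, a log2 difference of -1 or less, were seen in 4 of the 41 members, beside 1.97% of all genes. The 4 were the mitosis genes AURKB, CCNB1, UBE2C and CDC20. No member was 2-fold higher, beside 2.25% of all genes. The count of 4 depended on the pseudocount, since log2(FPKM + 1) understates changes at low levels. It was 8 with a pseudocount of 0.1, beside 3.28% of all genes. Once the median gene was set to no change it was 2, beside 1.54%. The 8 included the replication genes RRM2 and CCNE2, and as plain FPKM ratios 2 of 17 replication genes and 8 of 23 mitosis genes were at 0.5 or less, beside 3.60% of all genes. The 3 smallest differences, those of MCM6, PCNA and CCNA2, changed sign with FPKM rescaled to the same sum, with changes centred and with trends in transcript length and GC content removed, and that of TYMS did so under the last.

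**Figure D1:**
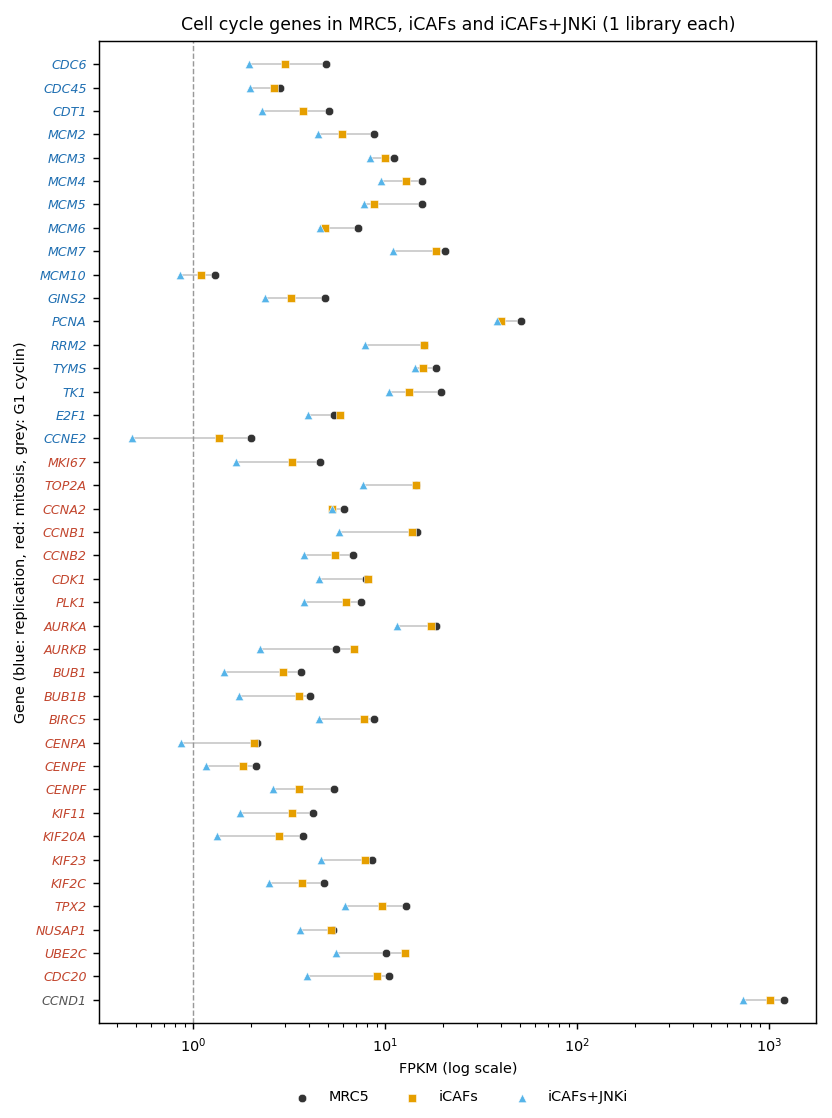
FPKM of the 41 genes (log axis) in the MRC5, iCAFs and iCAFs+JNKi libraries, 1 point per library, with a dashed line at 1 FPKM and gene names coloured by group. The iCAFs+JNKi point is the lowest of the 3 for all 41 genes, and CCND1 lies far to the right of the rest, at 728 to 1191 FPKM.

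The 4 genes past 2-fold act in mitosis or at its end. AURKB, the kinase of the chromosomal passenger complex that corrects faulty kinetochore attachments, measured 5.53 in MRC5, 6.85 in iCAFs and 2.22 FPKM with JNKi, a log2 difference of -1.29 against iCAFs. Of all 11780 genes, 0.985% fell as far or further. CCNB1, cyclin B1, the activator of CDK1 at the entry to mitosis, measured 14.7, 13.8 and 5.75 FPKM in that order. UBE2C, the ubiquitin-conjugating enzyme of the anaphase-promoting complex, measured 10.1 in MRC5, 12.6 in iCAFs and 5.56 FPKM with JNKi. CDC20, the activator of that complex at anaphase, was at 10.4, 9.02 and 3.92 FPKM. In iCAFs AURKB and UBE2C were at 1.24 and 1.25 times their MRC5 level, and CCNB1 and CDC20 at 0.938 and 0.866 times. The iCAFs+JNKi library stood below both others in each of the 4.

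The promoters of the 3 mitosis genes and 3 replication genes that differed most with JNKi and had an entry in the RefSeq promoter table are shown to compare the letters known to mark cell cycle genes. Each line is the 250 bases before the most upstream start listed there, on GRCh38.p14. Capitals mark matches on either strand to 3 motifs. The box bound by NF-Y was searched as CCAAT. The cell cycle homology region (CHR), bound by the DREAM and MuvB complexes, was searched as TTTGAA and with the variant spelling TTCGAA in addition. The E2F site was searched as TTTGGCG together with the spellings TTTCGCG and also TTTCCCG and finally TTTGCCG in the same windows. The windows are chr2:10122318-10122567 on the plus strand for RRM2, chr7:100101398-100101647 on the minus strand for MCM7, chr16:88803539-88803788 on the plus strand for CDT1, chr17:8210250-8210499 on the minus strand for AURKB, chr5:69166900-69167149 on the plus strand for CCNB1 and chr1:43358731-43358980 on the plus strand for CDC20.
RRM2: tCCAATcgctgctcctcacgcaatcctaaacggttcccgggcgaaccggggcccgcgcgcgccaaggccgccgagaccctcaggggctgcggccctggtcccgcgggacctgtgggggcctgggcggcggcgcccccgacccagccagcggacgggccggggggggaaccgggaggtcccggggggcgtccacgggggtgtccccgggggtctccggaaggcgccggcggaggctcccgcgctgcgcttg
MCM7: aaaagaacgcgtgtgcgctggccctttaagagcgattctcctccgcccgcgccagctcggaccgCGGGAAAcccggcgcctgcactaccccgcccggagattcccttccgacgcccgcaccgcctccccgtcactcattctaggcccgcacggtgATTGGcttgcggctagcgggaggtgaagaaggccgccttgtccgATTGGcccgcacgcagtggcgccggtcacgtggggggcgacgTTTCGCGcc
CDT1: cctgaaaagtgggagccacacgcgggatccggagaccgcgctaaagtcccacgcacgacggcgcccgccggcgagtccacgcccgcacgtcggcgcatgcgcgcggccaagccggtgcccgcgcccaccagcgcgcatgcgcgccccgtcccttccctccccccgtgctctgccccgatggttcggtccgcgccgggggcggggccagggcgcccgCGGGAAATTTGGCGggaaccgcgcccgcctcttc
AURKB: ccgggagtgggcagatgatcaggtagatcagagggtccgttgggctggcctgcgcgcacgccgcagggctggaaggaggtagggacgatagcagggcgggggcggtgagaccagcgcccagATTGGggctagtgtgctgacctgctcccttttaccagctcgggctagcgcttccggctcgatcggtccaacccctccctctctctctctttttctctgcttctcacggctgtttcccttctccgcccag
CCNB1: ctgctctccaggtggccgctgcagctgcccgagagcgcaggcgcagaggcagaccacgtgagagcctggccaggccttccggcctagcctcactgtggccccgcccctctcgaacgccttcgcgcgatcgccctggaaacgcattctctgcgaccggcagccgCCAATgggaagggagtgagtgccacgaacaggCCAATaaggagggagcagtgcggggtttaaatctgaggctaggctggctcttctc
CDC20: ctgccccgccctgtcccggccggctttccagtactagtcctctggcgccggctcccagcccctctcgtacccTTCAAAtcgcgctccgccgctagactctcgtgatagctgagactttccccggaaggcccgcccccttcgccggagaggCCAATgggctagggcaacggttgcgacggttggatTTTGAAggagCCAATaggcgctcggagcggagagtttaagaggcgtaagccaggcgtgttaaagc

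Among these windows CDC20 held 2 NF-Y boxes, 100 and 55 bases before the start, and 2 CHR matches, of which the nearer began 65 bases before it. CCNB1 held 2 NF-Y boxes, at 87 and 55 bases. AURKB held 1 NF-Y box and RRM2 1, and neither held a CHR or E2F match in the window. The listed starts were not checked against another annotation. The AURKB window may therefore lie inside the gene and not be its main promoter, and a CHR outside it would not be seen. CDT1 held 2 E2F matches, 34 and 27 bases before the start, and MCM7 held 2 E2F matches and 2 NF-Y boxes.

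Of the 41 members, 33 had a promoter in the table, with 1 window per gene, and MCM4, MCM5, CCNE2, AURKA, BIRC5, TPX2, UBE2C and CCND1 had none. An NF-Y box was present in 16 of 19 mitosis promoters (84.2%) and 9 of 14 replication promoters (64.3%), beside 35.1% of the 8760 genes that both passed the filter in the JNKi table and had a promoter entry, and 33.0% of all 27305 promoters. A CHR match was present in 10 of 19 mitosis promoters (52.6%) and 1 of 14 replication promoters (7.14%), beside 9.46% of those filtered genes and 14.6% of all promoters. For the E2F site the order was turned round, with 9 of 14 replication promoters (64.3%) and 3 of 19 mitosis promoters (15.8%), beside 11.5% and 7.35%. In wider lists of the same 2 functions, which hold none of the members, a CHR match was present in 48.3% of 58 mitosis promoters and 4.76% of 42 replication promoters, and an E2F site in 13.8% and 26.2%. A match of letters is not evidence that a factor binds, and a window without one says only that the letters are not there.

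**Figure D2:**
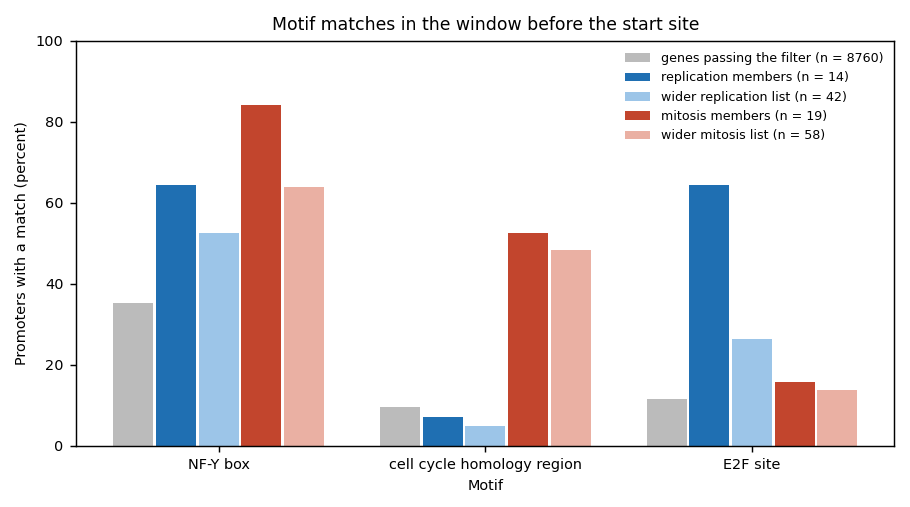
Share of promoters (percent, bars from 0) with at least 1 match for each of 3 motifs in the window before the start, for the members, the wider lists and the genes passing the filter in the JNKi table. The CHR bars of the mitosis groups stand at 52.6% and 48.3% and those of the replication groups at 7.14% and 4.76%, while the tallest E2F bar is that of the replication members, at 64.3%.

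Most other mitosis genes were lower with JNKi by less than 2-fold on the log2(FPKM + 1) scale. MKI67, which encodes the proliferation marker Ki-67, measured 4.54 in MRC5, 3.25 in iCAFs and 1.67 FPKM with JNKi. TOP2A, the topoisomerase that untangles sister chromatids, was at 14.5 FPKM in both MRC5 and iCAFs and at 7.60 FPKM with JNKi. CDK1, the mitotic kinase that cyclin B1 activates, was at 7.93, 8.14 and 4.51 FPKM. TOP2A and CDK1 were thus nearly level between MRC5 and iCAFs, and MKI67 was lower in each step. The checkpoint kinases BUB1 and BUB1B, which hold anaphase until all chromosomes are attached, had log2 differences of -0.69 and -0.73 with JNKi, although BUB1B shares exon bases with PAK6. BIRC5, survivin, the partner of AURKB, was at 8.76, 7.74 and 4.50 FPKM. CENPA, the histone H3 variant of centromeres, was at 2.14, 2.08 and 0.865 FPKM, and it shares exon bases with SLC35F6. The spindle genes, whose products move or bundle microtubules, had differences from -0.70 for KIF20A to -0.42 for KIF2C, with KIF11, KIF23, TPX2 and NUSAP1 between them. The kinases AURKA and PLK1, which act at spindle poles and in many steps of mitosis, had differences of -0.55 and -0.60. The smaller differences were those of CCNB2, at -0.44, CENPE, a kinetochore motor, at -0.38, and CENPF at -0.33. CCNA2, cyclin A2, stood apart, at 6.09 in MRC5, 5.27 in iCAFs and 5.25 FPKM with JNKi.

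Among the replication genes, those that supply nucleotides had the widest range with JNKi, from -0.93 to -0.14. RRM2, the small subunit of ribonucleotide reductase, was at 15.8 FPKM in both MRC5 and iCAFs and at 7.82 FPKM with JNKi, the largest difference of the group at -0.93. TYMS, thymidylate synthase, was at 18.3, 15.7 and 14.2 FPKM, a difference of -0.14 against iCAFs. TK1, the thymidine kinase of the salvage pathway, was at 19.5, 13.2 and 10.5 FPKM. RRM2 thus differed mainly with JNKi, and TK1 more in the earlier step. CCNE2, cyclin E2, which activates CDK2 at the start of S phase, measured 1.998 in MRC5, 1.357 in iCAFs and 0.4781 FPKM with JNKi, but it shares exon bases with INTS8. E2F1 was at 5.41, 5.81 and 3.95 FPKM.

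The helicase genes were uneven. MCM7 measured 20.5 in MRC5, 18.4 in iCAFs and 10.9 FPKM with JNKi, a log2 difference of -0.70 against iCAFs. MCM5 showed the opposite order of steps, at 15.6, 8.73 and 7.73 FPKM, with -0.77 in iCAFs against MRC5 and -0.16 with JNKi. MCM6 did so too, at 7.21, 4.86 and 4.58 FPKM. All 6 subunits form 1 ring in equal numbers. The other 3 subunits, MCM2, MCM3 and MCM4, had differences with JNKi from -0.39 to -0.24. The licensing factors CDC6 and CDT1 were lower in both steps, CDC6 at 4.90, 3.01 and 1.95 FPKM and CDT1 at 5.07, 3.71 and 2.28 FPKM. CDC45, GINS2 and MCM10, which activate the helicase, had differences with JNKi of -0.30, -0.33 and -0.18. PCNA, the sliding clamp of the polymerases, was the most abundant replication gene, at 50.8 in MRC5, 40.0 in iCAFs and 38.1 FPKM with JNKi. CCND1, cyclin D1, which starts the cycle with CDK4 and CDK6, was at 1191, 1008 and 728 FPKM, a difference of -0.47 with JNKi.

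Other genes of the same functions showed the same order of the groups, but they were measured in the same libraries and add no replicate check. Of 50 further replication genes 49 passed the filter, and 41 were lower with JNKi and 8 higher, with a median of -0.22 and none past 2-fold. Of 70 further mitosis genes 65 passed, and 63 were lower, with a median of -0.51. Among them 3 fell at least 2-fold, beside 1.97% of all genes. SPC25, a kinetochore subunit, was at 2.62 FPKM in iCAFs and 0.581 FPKM with JNKi. CKS2, which binds CDK1, was at 30.0 and 12.7 FPKM. HJURP, the chaperone that places CENPA at centromeres, was at 3.16 and 1.03 FPKM, and it shares exon bases with MROH2A. The 2 that were higher, KIF18A at 3.80 and 6.13 FPKM and BORA with a log2 difference of 0.01, are named after their values were seen. Among the further replication genes ASF1B, UHRF1 and ORC6 differed most, by -0.87, -0.86 and -0.79.

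In iCAFs against MRC5 the pattern was the other way round, with larger differences in replication genes than in mitosis genes and none of 2-fold. The median log2 difference was -0.34 over the 17 replication genes and -0.16 over the 23 mitosis genes, beside -0.061 over all genes. Of the 41 members 37 were lower in iCAFs, beside 59.4% of all genes. The 4 that were higher were E2F1, CDK1, AURKB and UBE2C. At the 2-fold threshold 0 members were lower, beside 1.71% of all genes, and 0 higher, beside 1.94%. MCM5, CDC6, TK1 and MCM2 had the largest differences, from -0.77 to -0.50, and the largest among mitosis genes was that of CENPF, at -0.49. Of the further mitosis genes the median was -0.17 and of the further replication genes -0.18, so the 2 wider lists did not show the gap that the members did. GINS4 and GMNN, the latter an inhibitor of CDT1, led the further replication genes, GINS4 at 9.40 FPKM in MRC5 and 5.00 FPKM in iCAFs and GMNN at 9.23 and 5.29 FPKM. The CM came from cancer cells kept in medium without serum, while MRC5 cells are described as maintained with serum, so factors of the cancer cells and the change of serum cannot be told apart here.

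**Figure D3:**
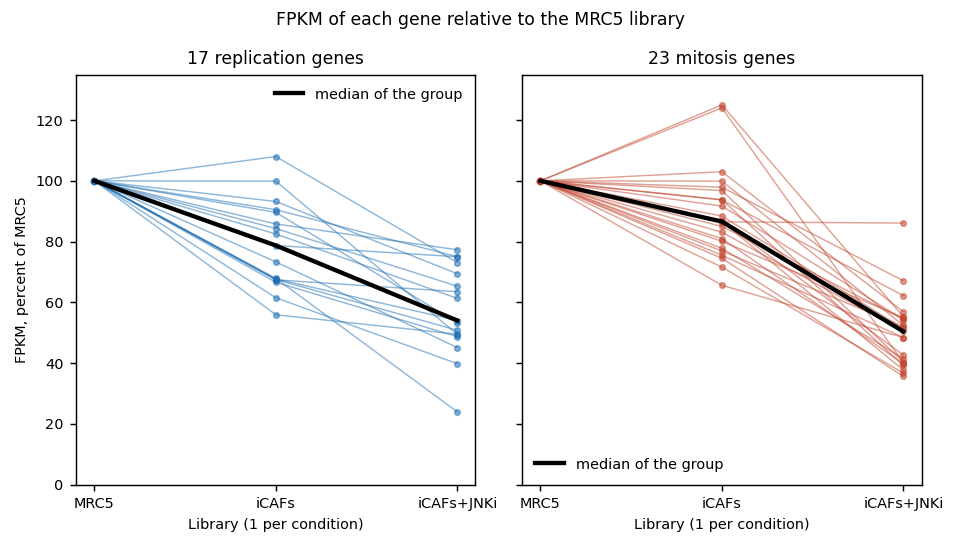
FPKM of each gene as a percent of its value in the MRC5 library, for 17 replication genes (left) and 23 mitosis genes (right), with the group's median in black. The median replication gene has 0.787 times its MRC5 level in iCAFs and 0.540 times with JNKi, and the median mitosis gene 0.866 and 0.504 times.

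Set against untreated MRC5, iCAFs+JNKi held less of all 41 genes. The median log2 difference was -0.80 for replication and -0.83 for mitosis genes, beside -0.16 for all genes, of which 66.4% were lower. At least 2-fold falls were seen in 6 members, beside 3.53% of all genes, and no member rose 2-fold, beside 3.28%. They were the replication gene CCNE2 and the mitosis genes CCNB1, CDC20, MKI67, KIF20A and AURKB. With a pseudocount of 0.1 the count was 17, beside 5.99% of all genes, and with changes centred it was 2, beside 2.27%. This comparison shares the MRC5 library with the previous one and the iCAFs+JNKi library with the one before it, so its values are the sum of both steps and add no separate evidence. MRC5 stood above iCAFs and iCAFs above iCAFs+JNKi in 16 of 17 replication genes and 20 of 23 mitosis genes, beside 36.1% of all genes.

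In the adenovirus-infected cells most mitosis genes were near the bottom of what the table can show. Only 24 of the 41 members reached a mean of 1 FPKM, 13 replication genes, 10 mitosis genes and CCND1. The median mitosis gene was at 0.683 (control), 0.728 (JUN WT) and 0.803 FPKM (JUN AA), and the median replication gene at 2.12, 3.89 and 2.12 FPKM. MKI67 measured 0.0819, 0.0460 and 0.0189 FPKM in that order, and CENPE at 0.0840, 0.0192 and 0.0776 FPKM. Low levels were thus present in the empty vector control as well. Differences between values this small cannot be read at an unknown depth. The 2 tables were normalised separately, so these levels are not compared with those of uninfected cells.

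**Figure D4:**
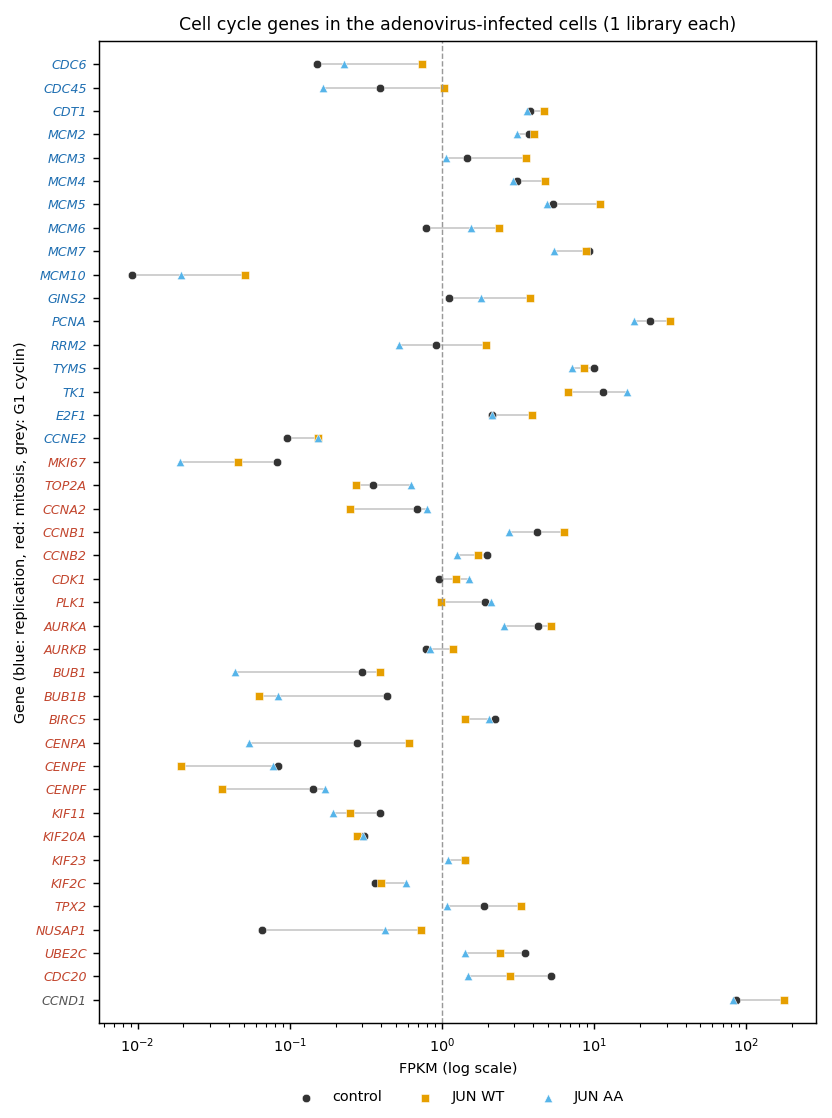
FPKM of the 41 genes (log axis) in the control, JUN WT and JUN AA libraries, 1 point per library, with a dashed line at 1 FPKM. Most mitosis genes lie left of the dashed line, and among replication genes the JUN WT point is the highest in 14 of 17. These include CDC6, CDC45, CCNE2 and MCM10, which did not pass the filter.

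JUN WT held more of most replication genes than either other library, while mitosis genes had no common direction. JUN WT was the highest of the 3 libraries in 14 of 17 replication and 8 of 23 mitosis genes, counted whether or not they passed the filter. The 14 include CDC6, CDC45, CCNE2 and MCM10, which did not pass it. Differences between their low values cannot be read at an unknown depth, and CCNE2 was at 0.153 FPKM in both JUN libraries. The share among all genes passing the filter was 48.2%, which is not a like set for these counts. Of members passing the filter, 10 of 13 replication and 5 of 10 mitosis genes exceeded their control value with JUN WT, beside 60.9% of all genes. Without the filter, the median log2 difference in JUN WT against control was 0.48 for the 17 replication genes and -0.049 for the 23 mitosis genes. Among genes passing it these were 0.48 and -0.064, beside 0.15 for all 10311 genes, but genes such as RRM2 passed it because of their JUN WT value. Among those passing, 16 members were higher and 8 lower, beside 60.9% and 39.1% of all genes. At least 2-fold rises were seen in 2 members, GINS2 and CCND1, beside 6.92% of all genes, and 2-fold falls in 0, beside 3.39%. On this scale the share of members past 2-fold was thus near that of all genes. As plain FPKM ratios, 8 of 17 replication genes were at 2 or more, beside 12.8% of all genes passing the filter. The 8 include CDC6, CDC45 and MCM10, which did not pass it. Of the 23 mitosis genes 2 were at 2 or more, CENPA and NUSAP1. At 0.5 or less were 4, CCNA2, BUB1B, CENPE and CENPF, beside 5.33% of all genes passing the filter. None of these mitosis genes passed it, so that share is not of a like set and their ratios cannot be read. The median over replication genes was 0.20 with trends in transcript length and GC content removed and -0.072 when limited to the 5 with a mean of at least 5 FPKM.

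GINS2, a subunit of the active helicase, was at 1.12 (control), 3.79 (JUN WT) and 1.82 FPKM (JUN AA), a log2 difference of 1.17 in JUN WT, and it shares exon bases with GSE1. MCM5 was at 5.41, 10.9 and 4.90 FPKM, MCM3 at 1.47, 3.59 and 1.07 FPKM and MCM6 at 0.788, 2.38 and 1.55 FPKM. The remaining helicase genes were closer together, with MCM2 at 3.74, 4.04 and 3.13 FPKM, MCM4 at 3.11, 4.74 and 2.93 FPKM and MCM7 at 9.33, 8.83 and 5.46 FPKM. The ring subunits therefore differed by -0.072 to 0.92 in JUN WT against control. PCNA was at 23.5, 31.4 and 18.4 FPKM, E2F1 at 2.12, 3.89 and 2.12 FPKM and CDT1 at 3.79, 4.67 and 3.61 FPKM. RRM2, at 0.917, 1.94 and 0.519 FPKM, was highest in JUN WT as well. TK1 went against the group, at 11.5 (control), 6.78 (JUN WT) and 16.4 FPKM (JUN AA), and TYMS was highest in the control, at 10.05, 8.629 and 7.213 FPKM. CDC6, CDC45, CCNE2 and MCM10 stayed under the filter, with no value above 1.04 FPKM. CCND1, by far the most abundant member, was at 85.5 (control), 177 (JUN WT) and 81.6 FPKM (JUN AA), a difference of 1.04 in JUN WT, and it shares exon bases with LTO1.

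Of the 50 further replication genes 27 passed the filter, and 23 of these were higher in JUN WT than in the control, beside 60.9% of all genes, with a median of 0.74. Their 3 at least 2-fold rises were those of RPA2, a subunit of the single-strand binding protein, from 6.14 to 19.1 FPKM, CCNE1, cyclin E1, from 1.21 to 3.76 FPKM, and PRIM2, a primase subunit that shares exon bases with PRIM2BP, from 1.36 to 3.88 FPKM. Of the 70 further mitosis genes 24 passed, with a median of -0.10 and none past 2-fold. At least 2-fold rises were seen in 6.92% of all genes. The filter takes the mean over all libraries of the table, so some of these genes may have passed because of their JUN WT value. The wider lists were not summarised without the filter.

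The 10 mitosis members that passed the filter in the infected cells were mixed in JUN WT, and 8 of them were lower in JUN AA than in the control. CDC20 was at 5.21 (control), 2.80 (JUN WT) and 1.49 FPKM (JUN AA), and UBE2C at 3.50, 2.42 and 1.41 FPKM. These partners of the anaphase-promoting complex had their highest value in the control. CCNB1, at 4.24, 6.37 and 2.77 FPKM, AURKA, at 4.28, 5.20 and 2.55 FPKM, and TPX2, the factor that activates AURKA on the spindle, at 1.90, 3.29 and 1.08 FPKM, were all highest in JUN WT and lowest in JUN AA. PLK1, at 1.91, 0.985 and 2.09 FPKM, and BIRC5, at 2.24, 1.41 and 2.05 FPKM, were lowest in JUN WT. CCNB2, CDK1 and KIF23 stayed between 0.954 and 1.98 FPKM in all 3 libraries. The 13 mitosis genes under the filter had no value above 1.19 FPKM, that of AURKB in JUN WT.

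In JUN AA against control the medians of both groups of members passing the filter lay below that of all genes, with single members on either side. For the replication members this depended on the settings, since their median was 0.099 with length and GC trends removed. The median log2 difference was -0.12 over the 13 replication genes that passed the filter and -0.44 over the 10 mitosis genes, beside -0.015 over all genes. Of the 24 members that passed, 18 were lower, beside 51.4% of all genes, and 6 were higher, by up to 0.51 for MCM6. On the log2(FPKM + 1) scale CDC20 alone fell at least 2-fold, by 1.32, beside 3.77% of all genes, and 0 members rose 2-fold, beside 5.29%. As plain FPKM ratios, 1 of 17 replication genes and 7 of 23 mitosis genes were at 0.5 or less, beside 6.54% of all genes passing the filter. The replication gene, CDC45, did not pass it. Of these mitosis genes only CDC20 and UBE2C, the latter at a ratio of 0.402, passed the filter. In each group 1 gene was at 2 or more, MCM10 and NUSAP1, beside 8.27% of all genes passing the filter. Neither of them passed it. Over all 23 mitosis genes without the filter the median was -0.089, so the value of -0.44 rests on the 10 more abundant genes. The further mitosis genes did not share it, with 13 of 24 higher, 11 lower and a median of 0.025. Nor were the further replication genes below all genes, with 14 of 27 higher, 13 lower and a median of 0.076. The FPKM of JUN AA had the largest sum, and rescaling all libraries to the same sum gave -0.41 for replication and -0.76 for mitosis genes, with the median of all genes then at -0.29.

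Set directly against JUN AA, JUN WT was higher in 16 of 17 replication genes and 13 of 23 mitosis genes without the filter. With the filter it was higher in 12 of 13 and 7 of 10, beside 62.5% of all genes. The medians among members passing it were 0.61 and 0.39, beside 0.18 over all genes. The mitosis median was 0.068 without the filter, and that of the 24 further mitosis genes was -0.082, with 10 higher and 14 lower. MCM3, MCM5, TPX2 and CCND1 were at least 2-fold higher, 4 of 24, beside 6.65% of all genes, and TK1 was 2-fold lower, 1 of 24, beside 5.61%. With FPKM rescaled these counts were 9 and 0, beside 17.2% and 3.53% of all genes. With trends in length and GC content removed they were 0 and 0, beside 3.85% and 4.73%. The 2 JUN libraries also differ in JUN mRNA, at 4543 and 291 FPKM, so the mutation and the amount of JUN cannot be told apart.

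**Figure D5:**
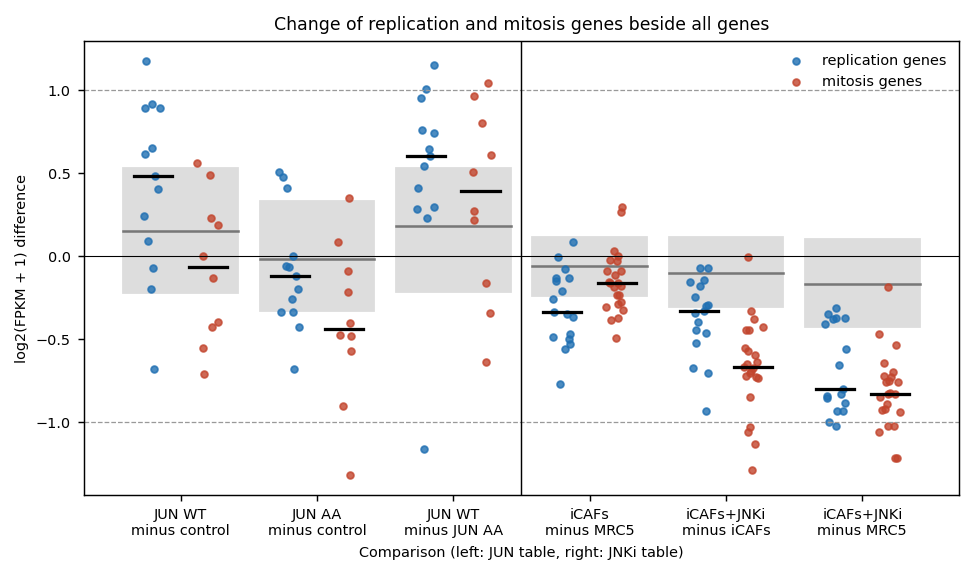
Difference in log2(FPKM + 1) of each replication gene (blue) and mitosis gene (red) that passed the filter, for the 3 comparisons of each table, with black bars at the group medians, a grey line at the median and a grey box at the quartiles of all genes, and dashed lines at 2-fold. With JNKi the mitosis median lies at -0.67 and the replication median at -0.33, and in iCAFs against MRC5 they lie at -0.16 and -0.34.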

How the data were processed

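The values are FPKM per gene as the authors deposited them. The submitters' processing notes name HISAT2 2.1.0 and StringTie 2.1.1, and the build is hg19. The annotation was not given in the sources used here. Columns were matched to libraries by name. Each table had 25370 rows, and for symbols on several rows the highest row was kept. Differences in log2(FPKM + 1) were computed within a table in Python 3.11.15 with numpy 2.4.6 and pandas 2.3.3, over genes whose mean over the table's 3 libraries reached 1 FPKM. A change was called at 2-fold. FPKM are not counts and each condition had 1 library, so no test was run, and the depth and error of single values are unknown. The script was tested on simulated data. Members and lists were chosen with earlier results of these data known. All members are described, and of the wider lists the 3 genes that differed most in each comparison could be named. Gene positions, transcript length and GC content came from GENCODE lifted to GRCh37, the build of the deposited files, and promoters from RefSeq on GRCh38.p14. Alternatives were another pseudocount (0.1), equal FPKM sums in all libraries (rescaled), subtraction of the median gene's change (centred), no filter, a filter of 5 FPKM, summed rows, the mean over a group, and removal of length and GC trends in 20 bins each, for which 90.4% to 91.1% of genes had values. A log2 value was taken to have moved by over 0.25 and a count by over 1.5 times. Figures were drawn with matplotlib 3.10.9.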

Additional observations from a re-analysis of the deposited data

How the results depend on the processing

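With 1 library per condition nothing could be left out. No paired analysis was possible because each condition has 1 library and no test was run. In the JNKi table none of the group medians moved by more than 0.25 or changed sign under any of the 8 alternatives. The mitosis median with JNKi against iCAFs ranged from -0.84 to -0.56 and the replication median from -0.41 to -0.20. In iCAFs against MRC5 they ranged from -0.21 to -0.099 and from -0.34 to -0.26. Counts of 2-fold falls with JNKi were 8 with a pseudocount of 0.1, 2 with changes centred and 1 with length and GC trends removed, in place of 4. The shares of all genes were 3.28%, 1.54% and 1.36% in that order. Against MRC5 the counts were 17 with a pseudocount of 0.1 and 2 with changes centred, with a filter of 5 FPKM or with trends removed, in place of 6. The shares of all genes were 5.99%, 2.27%, 3.23% and 2.02% in that order.

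The JUN overexpression table depended more on the settings. In JUN WT against control the 2 members 2-fold higher became 5 with a pseudocount of 0.1, 4 with FPKM rescaled and 1 with changes centred, a filter of 5 FPKM or trends removed. The shares of all genes were 11.9%, 9.01%, 4.23%, 7.57% and 3.65% in that order. The replication median was -0.072 with the filter of 5 FPKM and 0.20 with trends removed, which also gave a mitosis median of -0.42. No mitosis gene reached a mean of 5 FPKM there, so that filter gave no mitosis median. In JUN AA against control, rescaling gave medians of -0.41 and -0.76 for replication and mitosis genes, and no filter gave -0.089 for mitosis genes. The replication median changed sign, to 0.099, with trends removed. Members 2-fold lower were 2 with a pseudocount of 0.1 or trends removed, 3 with rescaling and 0 with the filter of 5 FPKM, in place of 1. Among all genes, 3.28% were then 2-fold higher and 9.28% lower with rescaling, in place of 5.29% and 3.77%. The share lower was 6.10% with a pseudocount of 0.1, 2.70% with trends removed and 4.39% with the filter of 5 FPKM. In JUN WT against JUN AA, rescaling gave medians of 0.92 and 0.69, no filter a mitosis median of 0.068 and trends removed a replication median of 0.28. Members 2-fold higher were 8 with a pseudocount of 0.1, 9 with rescaling, 2 with the filter of 5 FPKM and 0 with changes centred or trends removed, in place of 4. Members 2-fold lower were 2 with a pseudocount of 0.1 and 0 with rescaling or trends removed, in place of 1. Among all genes the share higher was 11.2% with a pseudocount of 0.1, 17.2% with rescaling and 7.23% with the filter of 5 FPKM. It was 3.99% with changes centred and 3.85% with trends removed, in place of 6.65%. The share lower was 7.13% with a pseudocount of 0.1, 3.53% with rescaling and 4.73% with trends removed, in place of 5.61%. Of 1260 values of single members under the alternatives 116 moved by more than 0.25, and 43 changed sign, none of them from a 2-fold change. The cause of these shifts was not tested.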

Other observations

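Genes that control G1 were listed by name as well, 30 in all, among them cyclin D and its kinases, the inhibitors of those kinases, and the RB and E2F families. In the JNKi table, the filter was passed by 28, with a median log2 difference of 0.013 in iCAFs against MRC5 and -0.18 with JNKi. E2F7, a repressor of the E2F family, fell at least 2-fold with JNKi and measured 15.1 in MRC5, 7.89 in iCAFs and 3.22 FPKM with JNKi. MYBL1, a MYB family factor, was the other of the 2 that fell 2-fold, beside 1.97% of all genes, at 11.9, 14.1 and 5.99 FPKM. CDK2, the partner of cyclins E and A, was the only one to rise 2-fold in iCAFs, beside 1.94% of all genes. It was at 15.9 in MRC5, 40.0 in iCAFs and 28.0 FPKM with JNKi, but it shares exon bases with PMEL. CDKN1C, the inhibitor p57, was at 2.83, 1.23 and 2.48 FPKM.

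In the infected cells 23 of the 30 passed, with medians of 0.031 in JUN WT and 0.026 in JUN AA against control. CDKN1C fell furthest in JUN WT, at 6.24 (control), 0.980 (JUN WT) and 2.87 FPKM (JUN AA). The inhibitors of the cyclin D kinases had no common direction in that library. CDKN2C, at 1.26, 6.33 and 2.35 FPKM, and CDKN2D, at 2.34, 8.44 and 2.75 FPKM, rose at least 2-fold in JUN WT. E2F7 did so too, by 1.02 on the log2 scale. These were 3 of the 23, beside 6.92% of all genes, and CDKN1C was the only 2-fold fall, beside 3.39%. CDKN2B was at 6.47, 3.95 and 2.50 FPKM, a fall of at least 2-fold in JUN AA, beside 3.77% of all genes. CDKN2A was at 137 (control), 141 (JUN WT) and 250 FPKM (JUN AA), and it shares exon bases with CDKN2B-AS1.

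The small mitotic partners of CDK1 were higher in JUN AA while 8 of the 10 mitosis members passing the filter were lower there. CKS2 was at 32.5 (control), 25.7 (JUN WT) and 60.3 FPKM (JUN AA), and CKS1B at 11.3, 14.7 and 18.9 FPKM, with log2 differences in JUN AA of 0.87 and 0.70. Among replication genes RPA3 and GMNN rose at least 2-fold in JUN AA, RPA3 from 3.366 to 10.04 FPKM and GMNN from 2.42 to 7.17 FPKM. LIG1, the ligase that joins Okazaki fragments, was at 4.07 and 1.27 FPKM. These 2 rises and 1 fall were among the 27 further replication genes passing the filter, beside 5.29% and 3.77% of all genes. RPA3 shares exon bases with UMAD1.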
